A study of Drosophila melanogaster with 6 samples.

Results

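Genes that hold maternal mRNA silent and then clear it were followed in Drosophila melanogaster embryos with and without ectopic Sage, a helix-loop-helix transcription factor of the salivary gland. The 10 genes are smg, pum, brat, me31B, tral, twin, Pop2, Not1, bru1 and gus. They were chosen by name, with earlier results of these data known. A gene counted as measured where a probe set was annotated to it and to no other gene. That held for 7 of the 10, with 8 probe sets, out of 11982 genes measured on the array. No probe set was assigned to tral, Not1 or bru1 in the annotation used here, and these 3 genes were not analysed here.

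RNA of whole embryos labelled as stages 11 to 16 was measured on 6 Affymetrix 3′ expression arrays. The 3 control samples carried the tub-Gal4 driver alone, and the 3 Sage samples carried tub-Gal4 with UAS-Sage. The Gal4 driver, which is active in most cells, is thus common to both groups. The labels call the groups age-matched and equally treated, with aging at 25 C and sorting on a COPAS biosorter, and do not say whether samples of a group were collected separately. The p-values therefore reflect the scatter of these 6 samples alone, and that scatter may be technical.

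A fly egg is loaded with mRNA made by the mother. RNA-binding proteins repress these transcripts and recruit enzymes that shorten the poly(A) tail, remove the cap and degrade the body, first with maternal factors alone and later with zygotic ones. Most of this clearance is complete before the embryo gastrulates, while several of the same proteins act again later, for example in germ cells and neural stem cells.

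For the sage transcript the difference was 4.96 log2 units (adjusted p = 1.96e-05 by limma), and the salivary gland markers had mean log2 signals of 7.54 to 7.91 on control arrays and 10.09 to 10.18 on Sage arrays. These markers include sage itself, so their means are not independent of it. Values are log2 signals per probe set, differences are Sage minus control, and a call means an adjusted p under 0.05 in limma over 18769 probe sets. Array medians lay between 5.55 and 5.72. Control replicate 3 stood apart, with Pearson's r across probe sets of 0.938 to control replicate 1 and 0.969 to control replicate 2, against 0.987 between those 2 arrays and 0.989 to 0.996 between Sage arrays. The controls did not form a group apart, since control replicate 1 had 0.962 to 0.972 to the Sage arrays, above its value to control replicate 3. To the Sage arrays control replicate 2 had 0.954 to 0.964 and control replicate 3 had 0.895 to 0.904. With 3 arrays a group, the exact permutation test cannot go below p = 0.1. Array controls also separated the groups. The hybridisation control BioB was higher with Sage, by 1.39 log2 units, and those labelled BioC, BioD and Cre by 0.95, 1.14 and 0.33. The dim labelling controls went the other way, with -0.66 for Dap, -0.44 for Thr, -0.43 for Phe and -0.21 for Lys, and the groups overlapped in none of these 8. The log2 ratio of 3′ to 5′ signal was higher with Sage for Act5C (by 0.99 and 0.58 in its 2 probe designs) and eIF4A (by 0.43), while GAPDH gave 0.51 in 1 design and -0.35, with overlapping groups, in the other. Handling and genotype therefore cannot be told apart for any gene described here.

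Of the 7 measured genes, 5 fell with Sage, none rose and 2 did not pass. The genes that fell were smg, brat, pum, me31B and gus, and those that did not pass were twin and Pop2, the catalytic deadenylases. The median difference of the 7 was -1.16 on the log2 scale, against 0.01 over all genes. Over 11982 genes with 1 probe set each, 12.2% were called lower and 5.6% higher. At an unadjusted p under 0.05 by limma no member was higher, against 15.1% of all genes, and the same 5 were lower, against 18.2%. Since the members were chosen with earlier results of these data known, the contrast with these shares is not an independent check. None was called higher in any of the alternatives run. Every Sage array lay below every control array for the 5 that fell, a pattern seen in 21% of all genes. In whole embryos, fewer cells of a type and less RNA per cell cannot be told apart.

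**Figure D1:**
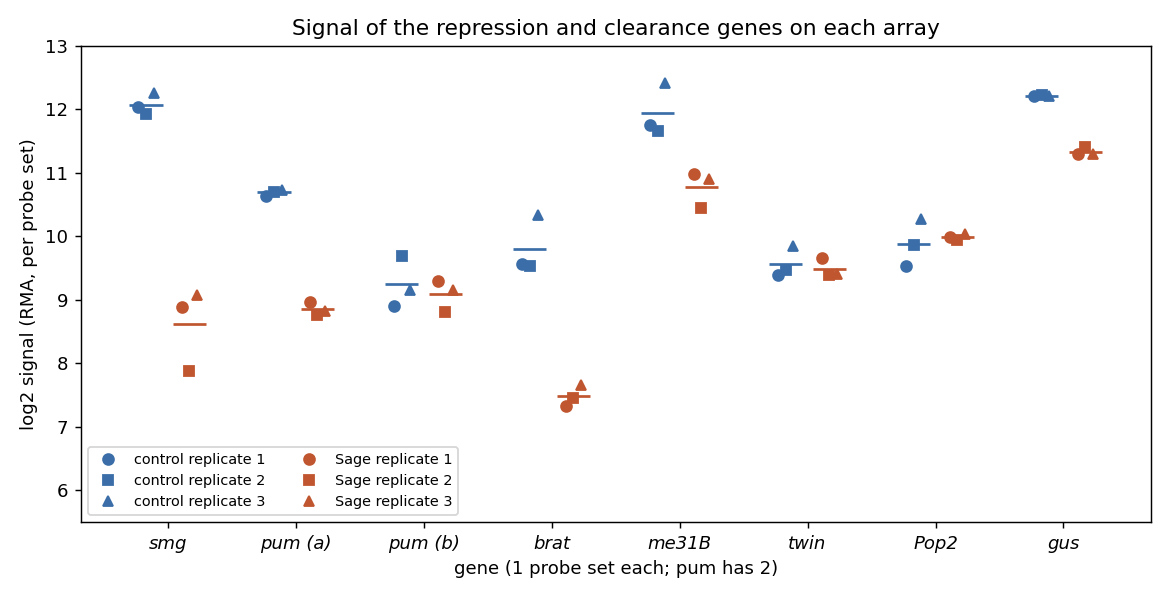
Log2 signal (y axis) of each member probe set (x axis) on each of the 6 arrays, with controls in blue, Sage in orange, replicates by symbol and group means as bars; pum (a) and pum (b) are its 2 probe sets. The groups separate for smg, pum (a), brat, me31B and gus and overlap for pum (b), twin and Pop2.

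The RNA-binding repressors showed the largest falls. smg encodes Smaug, a SAM-domain protein that binds stem-loops in maternal mRNAs and recruits both repressors and the deadenylase complex. Its probe set read 12.04, 11.92 and 12.26 on control arrays 1, 2 and 3 and 8.88, 7.88 and 9.08 on Sage arrays 1, 2 and 3. The controls spanned 0.33 log2 units, near the median control span of 0.30 over all probe sets, and Sage replicate 2 was the lowest of the 6 arrays. The mean went from 12.07 ± 0.17 to 8.62 ± 0.64 (SD, n = 3), a difference of -3.46 (SE 0.32) or 11.0-fold, with an adjusted p of 0.00219 by limma. Among 18769 probe sets, ordered from the most negative difference, it ranked 30.

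brat encodes a TRIM-NHL protein that represses hunchback mRNA with Pumilio and Nanos, binds many other maternal mRNAs, and limits growth in neural stem cells. Its probe set read 9.56, 9.53 and 10.34 in the controls and 7.33, 7.46 and 7.67 with Sage. Control replicate 3 was the highest array, and the lowest control still lay 1.87 log2 units above the highest Sage array. The mean went from 9.81 ± 0.46 to 7.48 ± 0.17 (SD, n = 3), a difference of -2.32 (SE 0.24) or 5.01-fold, with an adjusted p of 0.00282 by limma.

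pum encodes Pumilio, the founding PUF-family repressor, and its 2 probe sets gave different results. The first read 10.64, 10.70 and 10.73 in the controls and 8.96, 8.77 and 8.83 with Sage. Both groups were tight, with means of 10.69 ± 0.045 and 8.85 ± 0.099 (SD, n = 3). The difference was -1.84 (SE 0.08) or 3.58-fold, with an adjusted p of 0.000504 by limma. The other probe set read 8.91, 9.70 and 9.15 in the controls and 9.29, 8.81 and 9.16 with Sage, and the groups overlapped. Its difference of -0.16 (SE 0.24, adjusted p = 0.739 by limma) had a 95% confidence interval of -0.74 to 0.41. Within each array the first probe set minus the second was 1.01 to 1.74 in the controls and -0.33 to -0.05 with Sage, a change of -1.68 (exact two-sided permutation p = 0.1, the smallest possible, n = 3 a group). The sources used here do not say which pum transcripts each probe set detects, so the fall is a result of the first probe set only.

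me31B encodes the DEAD-box helicase of the DDX6 family that coats repressed mRNAs in oocyte granules and P bodies. Its probe set read 11.75, 11.66 and 12.42 in the controls and 10.99, 10.46 and 10.91 with Sage. Control replicate 3 was highest and Sage replicate 2 lowest. The mean went from 11.94 ± 0.42 to 10.78 ± 0.29 (SD, n = 3), a difference of -1.16 (SE 0.25) or 2.24-fold, with an adjusted p of 0.0318 by limma. This call was the least firm of the 5. It was lost without control replicate 2 (difference -1.30, adjusted p = 0.0545 by limma) and without Sage replicate 1, 2 or 3 (differences -1.26, -0.996 and -1.22, adjusted p = 0.074, 0.104 and 0.102 by limma), fits that also have fewer degrees of freedom. Without control replicate 3 the difference was -0.92 and still passed.

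gus encodes Gustavus, a SPRY and SOCS-box protein that binds Vasa and acts as a receptor of a Cullin-5 ubiquitin ligase. Its probe set read 12.21, 12.23 and 12.21 in the controls and 11.30, 11.41 and 11.30 with Sage. The controls spanned only 0.026 log2 units, a span smaller than that of all but 0.948% of probe sets. The mean went from 12.22 ± 0.013 to 11.34 ± 0.061 (SD, n = 3), a difference of -0.88 (SE 0.07) or 1.84-fold, with an adjusted p of 0.00163 by limma. The fall of gus was the smallest of the 5.

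The deadenylase genes twin and Pop2 did not pass. twin encodes Ccr4 and Pop2 encodes the Caf1 nuclease, the enzymes of the CCR4-NOT complex that shorten poly(A) tails. The twin probe set read 9.39, 9.48 and 9.85 in the controls and 9.66, 9.39 and 9.41 with Sage. Its groups overlapped, with a difference of -0.08 (SE 0.15, 95% confidence interval -0.46 to 0.29, adjusted p = 0.799 by limma). The Pop2 probe set read 9.53, 9.86 and 10.27 in the controls and 10.00, 9.95 and 10.04 with Sage. These groups overlapped too, with a difference of 0.11 (SE 0.19, 95% confidence interval -0.36 to 0.57, adjusted p = 0.79 by limma). Both intervals end short of a change of 1 log2 unit in either direction. The sign of twin turned without control replicate 3 (0.055), and that of Pop2 without control replicate 1 (-0.071).

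Among the genes that fell, the 95% confidence intervals of neighbours in the order overlapped. They were -4.25 to -2.67 for smg, -2.91 to -1.74 for brat, -2.05 to -1.63 for pum, -1.77 to -0.55 for me31B and -1.06 to -0.70 for gus.

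The control arrays were next taken singly, since they differed among themselves. Against control replicates 1, 2 and 3, the Sage mean of smg was lower, with differences of -3.43, -3.31 and -3.64. For pum (first probe set) the differences were -1.79, -1.85 and -1.88, and for gus they were -0.88, -0.90 and -0.87. Of these, pum and gus gave nearly the same value whichever control was used. The controls of smg spanned 0.33 log2 units, more than those of 53.8% of probe sets, a small part of its difference. The differences of brat were -2.07, -2.05 and -2.85, and those of me31B were -0.97, -0.88 and -1.64, so both were larger against control replicate 3. twin (0.10, 0.01 and -0.36) and Pop2 (0.47, 0.13 and -0.28) changed sign between controls.

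Among the 7 genes, 3 (smg, brat and pum) were at least 1 log2 unit lower than each control array taken alone. Of all probe sets, 3.75% were, and 4.53%, 4.81% and 9.94% were lower by that much than control replicate 1, 2 and 3 singly. These shares cover all 18769 probe sets, dim ones included. The members are counted by 1 probe set a gene and no member signal was under 7.33, so the count and the shares are not like for like. Each comparison with a single control array has no replicate check.

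**Figure D2:**
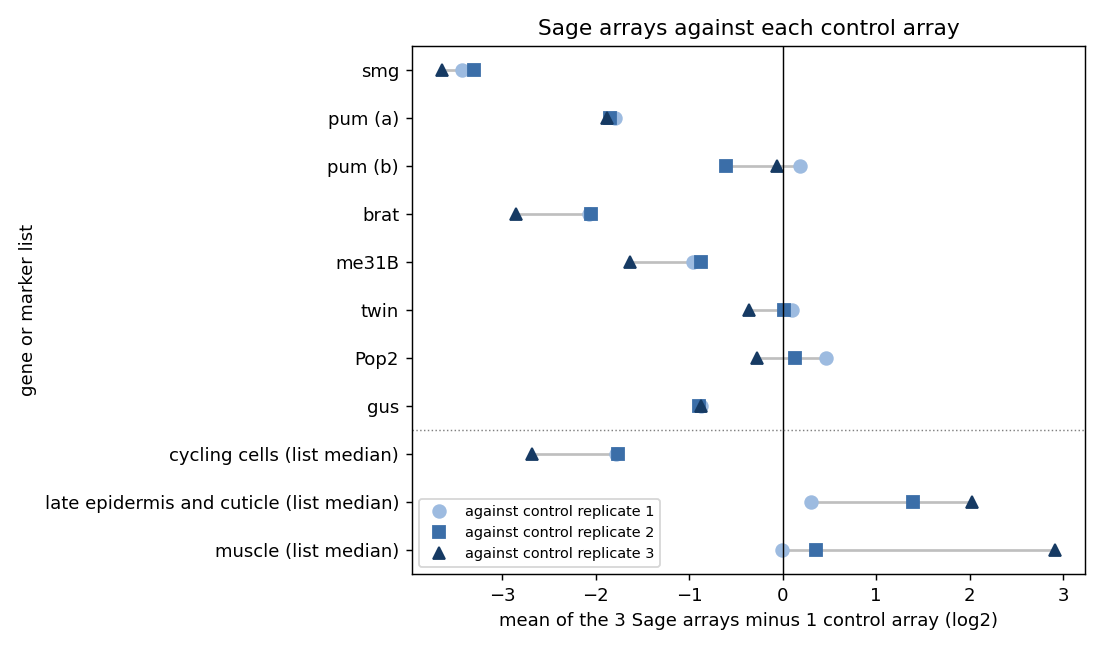
Mean of the 3 Sage arrays minus each control array (x axis, log2) for each member probe set and for the median of 3 marker lists (y axis), with a symbol for each control replicate. pum (a) and gus have nearly one value, smg varies somewhat more, brat and me31B lie lower against control replicate 3, and the cuticle and muscle medians depend most on which control is used.

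Markers of cell types and stages also differed between groups and between controls. Cycling-cell genes had mean signals of 10.52 to 11.30 on control arrays and 8.73 to 8.92 on Sage arrays, and 6 of 7 measured fell, led by the mitotic cyclins CycB (-2.57) and CycB3 (-2.47). Germ-cell genes had means of 8.94 to 9.47 and 7.70 to 8.09, and 3 of 8 fell. These were pum, itself a member gene, CycB, and aub (-1.72), a piRNA-pathway gene. CycB is also counted among the cycling-cell genes and among the target transcripts. The germ-cell means are thus not independent of pum or of CycB. The other 5 germ-cell genes did not pass, with osk at -2.48, ovo at -0.52, tud at -0.37, vas at -0.30 and gcl at 0.20. The germ-cell marker vas was dim in both groups, with means of 4.998 and 4.70.

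Late epidermis and cuticle genes had means of 6.63 to 8.34 in controls and 8.79 to 9.09 with Sage, and 4 of 13 rose, led by TwdlN (4.02) and Ccp84Ae (3.01). TwdlN did not pass without control replicate 2 or any 1 of the Sage arrays, nor Ccp84Ae without Sage replicate 2 or 3. The list's median difference was 0.30, 1.398 and 2.02 against control replicates 1, 2 and 3. Neither neuron and neuroblast genes (0 of 9 called by limma, means of 7.84 to 8.24 and 8.20 to 8.35, with Gad1 at 1.75 and Syn at 1.60) nor muscle genes (0 of 6, means of 8.82 to 11.29 and 10.78 to 11.59, with Tm2 at 1.24 and bt at 1.17) had a member past the threshold. These 4 differences rested mainly on control replicate 3, without which Gad1 had 0.66, Syn 0.56, Tm2 0.34 and bt 0.22. Syn and Gad1 had 2.25 and 2.50 and Tm2 1.88 without control replicate 1, and bt had 0.62 without Sage replicate 1 and 2.03 without Sage replicate 2. The neuron and neuroblast genes went both ways, with 5 of 9 differences negative and a median of -0.04. Among the negative ones were ase (-0.77), wor (-0.65) and elav (-0.58). Against control replicate 1 alone, ase had 0.14, wor 0.19 and elav -0.25. Of 9 salivary gland genes 7 rose, led by Eig71Ee (5.12) and by sage, the overexpressed gene itself. The salivary gland genes fkh (0.12, with overlapping groups) and sens (1.78, adjusted p = 0.145 by limma) did not pass. The part of these differences in the falls of smg, brat, pum, me31B and gus was not tested.

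Bright signals of some transcripts that are normally cleared before gastrulation were present on the control arrays, whose label is stages 11 to 16. That stage label could not be checked further here. The control mean of smg, 12.07, belongs to this observation, since its maternal mRNA is among those normally cleared. The bcd mRNA, laid down by the mother, had a mean of 9.94 ± 0.35 in controls and 6.16 ± 0.91 with Sage (SD, n = 3). plu, a maternal subunit gene of the Pan gu kinase that permits smg translation at egg activation, had 9.86 ± 0.27 and 5.49 ± 0.34 (SD, n = 3). Not all maternal transcripts were bright on the control arrays. Control means were 5.24 for png, 5.84 for gnu, 5.70 for exu and 5.89 for BicC, near the array medians, and 4.15 for orb.

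Other genes of the same pathways were measured for 62 genes outside the member list. Of these, 15 fell and none rose by limma (28 lower and 2 higher at an unadjusted p under 0.05), 48 had a negative difference, and the median was -0.35. Over all genes the shares were 12.2% lower and 5.6% higher, and at the unadjusted p 18.2% lower and 15.1% higher. Without Sage replicate 3 the number that fell was 8, and without control replicate 2 it was 9. With control replicate 3 and Sage replicate 2 both left out, 19 fell. The lists were drawn up with earlier results of these data known.

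Among 10 other deadenylase genes, subunits of CCR4-NOT, its partner Tob and the PAN2-PAN3 nuclease, none was called by limma, and the median was -0.31. The largest differences were those of Tob, the single fly BTG-family gene (-1.10, adjusted p = 0.0611 by limma), and of Rga, the NOT2 subunit (-0.44, adjusted p = 0.0681 by limma). Rga passed without control replicate 1 (-0.52, adjusted p = 0.0445 by limma). PAN2 (0.003) and Not11 (0.03) had differences near 0.

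Decapping and decay genes had a median of -0.80, and 2 of 10 fell. Patr-1, which links me31B to the decapping enzyme, read 9.80, 9.77 and 10.17 in the controls and 8.34, 7.91 and 8.31 with Sage, a 3.31-fold fall (adjusted p = 0.00251 by limma). Edc3, an enhancer of decapping, had -1.07 (adjusted p = 0.0174 by limma), and did not pass without control replicate 2 (-0.92 to -1.23 over the arrays left out) or without Sage replicate 3. The scaffold gene Ge-1 (-0.92), the catalytic subunit gene DCP2 (-0.98) and its activator gene DCP1 (-0.89) did not pass, with adjusted p-values of 0.0542, 0.0715 and 0.0872 by limma, although every Sage array lay below every control array for each. The exonuclease gene pcm (-0.44) did not pass, and LSm1 (0.24) and LSm7 (0.32), of the ring that binds deadenylated ends, had positive differences that did not pass.

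Among 14 genes of translational repression and messenger ribonucleoproteins, 2 fell and the median was -0.14. These were Hrb27C (listed as hrp48), which binds oskar mRNA (-1.21, adjusted p = 0.0317 by limma), and rin, the fly G3BP (-1.01, adjusted p = 0.029 by limma). Both calls were lost without control replicate 2 and without any 1 of the Sage arrays. 4E-T, which binds eIF4E and me31B, had -1.13 with an adjusted p of 0.0766 by limma. The poly(A)-binding protein gene pAbp (0.13) and the cap-binding protein gene eIF4E1 (0.07) did not pass.

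In the ubiquitin ligase list muskelin fell most. It encodes the substrate adaptor of the CTLH ligase, which at the maternal-to-zygotic transition marks ME31B, Trailer hitch and Cup proteins for degradation. The gene read 9.43, 9.27 and 9.92 in the controls and 6.90, 6.07 and 6.61 with Sage. The fall was 8.08-fold (difference -3.01, SE 0.27, adjusted p = 0.00185 by limma), and it held whichever array was left out. The ligase's other subunit genes measured did not pass, among them RanBPM (0.27), Hou (-0.33), Kaz (-0.31) and Sou (0.38). Among the Cullin-5 partners of Gustavus, EloB fell (-0.49, adjusted p = 0.0312 by limma), a call lost without any 1 of the 6 arrays other than Sage replicate 2, and Cul5 had -0.65 and did not pass. In all 2 of 10 genes of this list fell, with a median of -0.30.

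Of 4 genes of the miRNA pathway, which clears maternal mRNA through zygotic miRNAs, 3 fell and the median was -0.76. pasha (-1.04) and drosha (-0.87), which form the nuclear processing complex, and gw (-0.64), the GW182 protein that recruits CCR4-NOT, had adjusted p-values of 0.0065, 0.0251 and 0.0133 by limma. pasha passed with each array left out. drosha did not pass without control replicate 2 or any 1 of the Sage arrays, nor gw without control replicate 2 or Sage replicate 3. loqs, a partner of Dicer, had -0.03.

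Of 6 genes of the Pan gu kinase and of zygotic genome activation, 3 fell, with a median of -0.64. plu fell (adjusted p = 0.000608 by limma), with a difference of -4.37 whose size is approximate, since its Sage values of 5.64, 5.10 and 5.72 lay at the level of the array medians. The other kinase subunit genes, png (-0.04) and gnu (-0.53), did not pass, with control means of 5.24 and 5.84 near the array medians. zld, the Zelda pioneer factor that opens the early zygotic genome, fell 3.93-fold (adjusted p = 0.00625 by limma). Clamp, a GA-repeat binding factor, fell 1.68-fold (adjusted p = 0.0128 by limma), a call lost without Sage replicate 1 or 3. Trl, the GAGA factor, had 0.49 and did not pass.

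Transcripts known as targets of these regulators had a median of -1.33, and 3 of 8 measured fell. bcd fell 13.7-fold (a size that is approximate, with Sage values of 6.67, 5.10 and 6.70), CycB, which Pumilio and Nanos repress in germ cells, 5.96-fold, and Mad, a transducer of BMP signals, 2.15-fold, with adjusted p-values of 0.00503, 0.000731 and 0.00125 by limma. A second bcd probe set, with control values of 5.67 to 5.98, had -0.40 and did not pass. All 3 calls held with each array left out. osk, which Bruno represses, had -2.48 (adjusted p = 0.0549 by limma), with control values of 5.78, 5.95 and 8.14 in replicates 1, 2 and 3. The size for osk is approximate, since its Sage values of 4.23, 4.05 and 4.17 lay below the array medians. Other osk probe sets had -1.98 and -1.04 and did not pass. hb (-1.55), grk (-0.74), mei-P26 (-0.73) and dpp (-0.34) did not pass.

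**Figure D3:**
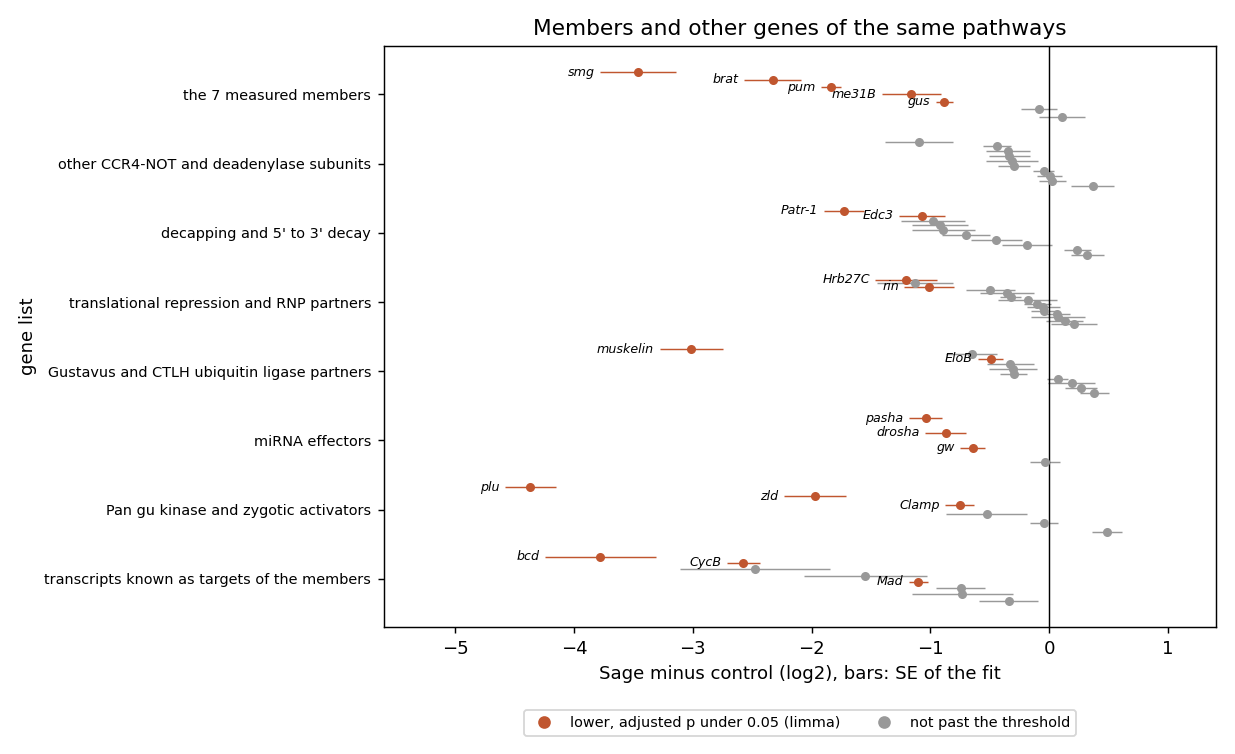
Sage minus control on the log2 scale (x axis; bars are the SE of the fit) for the 7 members and for the other pathway genes by list (y axis), in orange where called lower by limma and in grey otherwise. The named falls reach -4.37 for plu, and the other CCR4-NOT and deadenylase subunits hold no orange point.

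The genes closest in pattern to smg were found by the root mean square distance between array values, each centred on its gene's mean over the 6 arrays. The 5 closest were dob, a lipase gene (distance 0.14 log2 units), CG44005 (0.15), squ and AGO3, both of the piRNA pathway (0.16 and 0.17), and cav, a telomere-capping gene (0.18). Their differences were -3.54, -3.46, -3.66, -3.70 and -3.22, against -3.46 for smg. The sizes for dob, CG44005 and AGO3 are approximate, since their Sage means of 5.48, 4.88 and 5.44 lay below the array medians, whereas that of smg (8.62) did not. All 6 genes were lowest in Sage replicate 2, where smg lay 1.10 log2 units below the mean of the other Sage arrays (difference -1.10). In that array 218 probe sets were at least 1 log2 unit below that mean.

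Sage replicate 2 and control replicate 3 entered the members' values to different degrees. Control replicate 3 exceeded the mean of the other controls by 0.79 for brat, 0.72 for me31B, 0.58 for Pop2, 0.42 for twin and 0.27 for smg, and hardly at all for pum (0.06) and gus (-0.02). Without control replicate 3 and Sage replicate 2 together, 5 members fell and none rose.

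**Figure D4:**
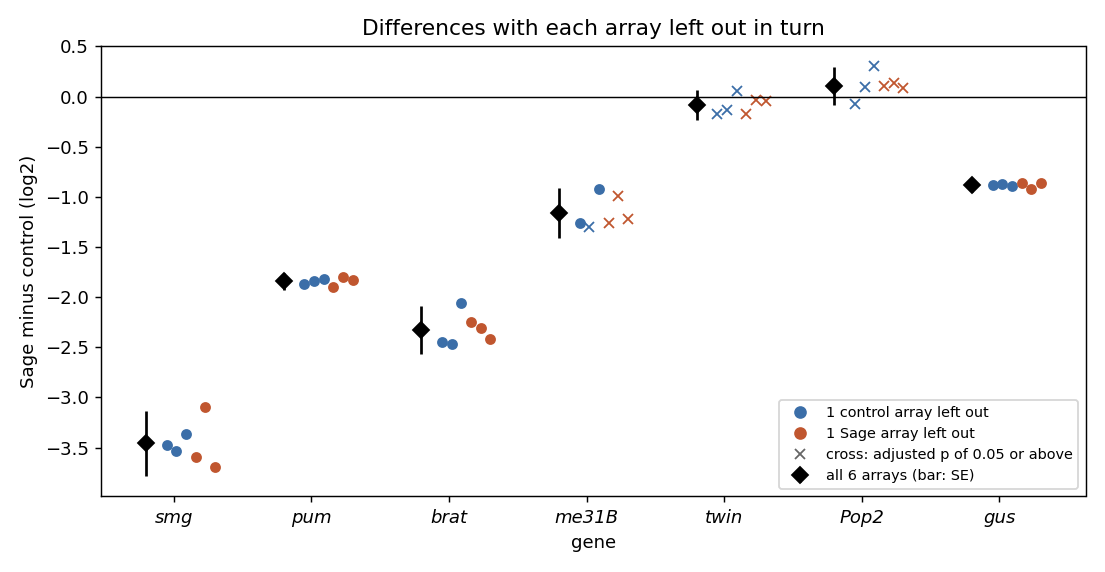
Sage minus control on the log2 scale (y axis) for each member (x axis) with all 6 arrays (black, bar is the SE) and with each control (blue) or Sage (orange) array left out, where a cross marks an adjusted p of 0.05 or above. smg stays between -3.69 and -3.09 and gus between -0.92 and -0.86, while me31B crosses the threshold.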

How the data were processed

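The authors deposited log2 signals per probe set from 6 arrays. RMA and Partek are named, with no version, per the submitters' processing notes, and 3′ in vitro transcription labelling is named per the labels' protocols. RMA equalises the arrays' distributions, so a change in total RNA per embryo cannot be seen, and low signals are compressed. No genome build of the array is known from the labels, so no coordinates are printed.

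Of 18952 probe sets, 183 array controls were left out and 18769 were tested with no filter. The platform annotation named 1 gene for 13647. Symbols of 13544 were updated through Entrez identifiers to RefSeq (Release 6), and synonyms were matched in the same table. A gene with several probe sets was represented by the one of highest mean signal.

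The test was limma 3.58.1 (R 4.3.3; lmFit and eBayes), Sage minus control, two-sided, with Benjamini-Hochberg adjustment over all probe sets at 0.05 and no covariate. Exact permutation tests over arrays stand beside it. The procedure was tested on simulated data. Deviations from the group mean had correlations of -0.13, -0.07 and -0.25 between same-numbered replicates, and 0.29 between control replicate 1 and Sage replicate 3. With so few arrays these values cannot exclude a collection or batch shared by replicate number. The main test did not pair the samples.

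Members and lists (7 of pathway genes, 6 of markers) were chosen with earlier results of these data known. From each list the text names the 2 genes that rose most and the 2 that fell most among those called (with no call, the 2 of largest difference), and then the 5 genes nearest to smg. Other genes in the text (gw, Clamp, Mad, aub and those that did not pass) were named after their values were seen. Promoter motifs were planned and are not analysed here. All value columns were used. Figures were drawn with matplotlib 3.10.9.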

Additional observations from a re-analysis of the deposited data

How the results depend on the processing

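Alternatives were each array left out, the replicate number as a block, only probe sets reaching log2 6 on at least 3 arrays, array weights, no moderation, a trended prior, a robust prior, centring on medians, quantile normalization, the other pum probe set and, chosen after the data were seen, control replicate 3 and Sage replicate 2 both left out. In all 16, 4 or 5 members fell and none rose. smg, brat and gus fell in each, with adjusted p-values up to 0.0269, 0.0296 and 0.0233 by limma or without moderation, and pum in each except with its other probe set (-0.16). me31B passed in 11 (over all 16 its differences ran from -1.30 to -0.76) and lost its call without moderation (adjusted p = 0.113) and with 1 of the 4 arrays named above left out. With 1 array left out twin ranged from -0.17 to 0.055 and Pop2 from -0.071 to 0.30. The sign of twin turned without control replicate 3 (0.055), with quantile normalization (0.03) and with both arrays left out (0.11), and that of Pop2 without control replicate 1 (-0.071). The cause was not tested.

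The other pathway genes that fell numbered 8 to 18, and those that rose 0 or 1, with 1 array left out. With the replicate block 8 fell, with no moderation 9, and with array weights 36 fell and 4 rose. With quantile normalization 1 rose. Over all probe sets, 797 were higher and 1774 lower. With 1 array left out, 266 to 1276 were higher and 934 to 2035 lower. With the replicate block 341 were higher and 1057 lower, with no moderation 353 and 1026, and with array weights 4869 and 4922. The estimation of these weights stopped before convergence. The replicate block ended no member's call. The number of arrays limits the precision.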
